A study of Canis lupus familiaris with 5 samples.

Results

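The genes described here encode the enzymes that add methyl or acetyl groups to histones, those that remove them, the enzymes that methylate DNA or oxidise its methyl marks, and the core partners of EZH2. They were chosen by symbol and not by a cut on their values, though earlier results of these data were known. The choice took all genes of the KDM, KMT, SETD, HDAC, SIRT, KAT, DNMT, TET, PRMT and NSD families whose probe sets carry a single gene symbol. It also took EZH1, EZH2, EED, SUZ12, CREBBP, EHMT1, EHMT2, DOT1L and SUV39H1. This gave 83 genes with 176 probe sets, out of 15115 genes on the array. The probe set with the highest mean over the lines stands for each gene. EP300 and DNMT3B, which the choice also names, had no such probe set and are not described. The SETD pattern also takes in SETDB1 and SETDB2, and the SIRT and PRMT families include enzymes that act mainly on proteins other than histones.

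Expression was measured in total RNA from 5 canine lymphoid tumour cell lines on Affymetrix arrays, with 1 array per line. The B-labelled lines were 17-71, from a malignancy of B lymphocytes, and GL-1, from a B-cell leukemia (n = 2). The T-labelled lines were CL-1, labelled a primitive leukemia of alpha/beta T cells, CLGL-90, labelled a large granular lymphocyte (LGL) leukemia of T cells, and CLL-1390, labelled a primitive T-cell leukemia (n = 3). All lines were untreated and grown in RPMI medium with 10% fetal bovine serum. Each line stands for 1 tumour and no line was measured again, so every SD and p-value below measures the spread between lines. No normal lymphocytes were analysed here.

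Chromatin enzymes work in opposed pairs. Polycomb repressive complex 2, in which EZH2 or EZH1 is the catalytic subunit and EED and SUZ12 are required partners, methylates lysine 27 of histone H3 and silences genes, and KDM6A and KDM6B remove that mark. KMT2 enzymes methylate H3 lysine 4 at promoters and enhancers, the acetyltransferases CREBBP, KAT2A and KAT2B open chromatin, and histone deacetylases reverse the acetylation. DNMT1 copies DNA methylation after replication, DNMT3A sets it on new sites, and TET enzymes start its removal. Several of these genes (EZH2, KMT2D, CREBBP, DNMT3A, TET2, SETD2, NSD2) are known as targets of mutation in human lymphoid tumours.

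All values are log2 intensities, on which a difference of 1 is a doubling. They were compared between lines for the same probe set only, since different probe sets have different affinities. Array medians lay between 6.87 and 7.0. The highest of 59 control probe sets for sequences not found in dogs read 6.39 to 6.76, a guide to background on each array. Lineage markers went with the labels only in part. In T-labelled CL-1 the T-cell receptor genes CD3D and CD3G read 5.44 and 5.34, whereas CD247, of the same complex, read 11.16 and LCK 8.88. In B-labelled GL-1 the B-cell genes CD79A and EBF1 had their highest values, 7.83 and 7.71, but CD3D read 9.78 and LCK 10.65. Other B-cell genes did not mark the B-labelled lines alone. BLNK and MS4A1 were highest in CLGL-90, and PAX5 read 6.83 to 7.18 and CD79B 4.38 to 4.76 over the lines. BTK read 11.52 in 17-71 and 11.46 in GL-1, but also 11.23 in CLL-1390. In B-labelled 17-71, CD79A read 5.50 and EBF1 6.23, under that array's highest control. There BLNK read 8.12 and the T-cell gene CD2 11.42, though CD3D read 5.14. LYZ, a myeloid gene, read 12.39 in 17-71 and 12.01 in GL-1, against 3.28 in CL-1, 4.02 in CLGL-90 and 3.77 in CLL-1390. The myeloid genes SPI1, S100A8, S100A9, FCER1G and AIF1 were also higher in both B-labelled lines, by 3.81 to 6.32 in the group means. CD14, a further myeloid gene, read 7.95 to 8.26 over the lines. The part of these markers in the differences below was not tested. In RNA from a whole culture, fewer expressing cells and less RNA per cell cannot be told apart.

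Of the 83 enzyme genes, 66 (79.5%) lay above the highest control in all 5 lines and 9 in some of them. EZH2 and DNMT1, the best known of them in lymphocytes, were among the 66. The 8 that did so in no line were SETD1B, KDM8, HDAC4, HDAC9, HDAC11, DNMT3L, TET1 and PRMT8. SETD1B and HDAC9 were also too dim to be tested, which left 81 genes. The range from the lowest to the highest line was under 1 for 48 of the 81 (59.3%), a share near the 61% of the 14162 genes tested. A range of 2 or more was seen for 6 (7.41%), SETDB1, KAT2B, EED, SUZ12, NSD1 and HDAC1, against 14.2% of all tested genes. That count was 1 without CL-1 (1.23%, all genes 9.84%), 4 without 17-71 (4.94%, all genes 11.4%) and 4 without CLL-1390 (4.94%, all genes 11.6%). All 6 also reached log2 8 in a line. Among the enzymes reaching that level they were 6 of 61 (9.84%), against 23.3% of all such genes. With the probe set of highest variance for each gene, a range of 2 or more was seen for 11 of 80 enzymes (13.8%), against 18.7% of all genes. The median range was 0.91 for the enzymes and 0.76 for all tested genes.

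**Figure D1:**
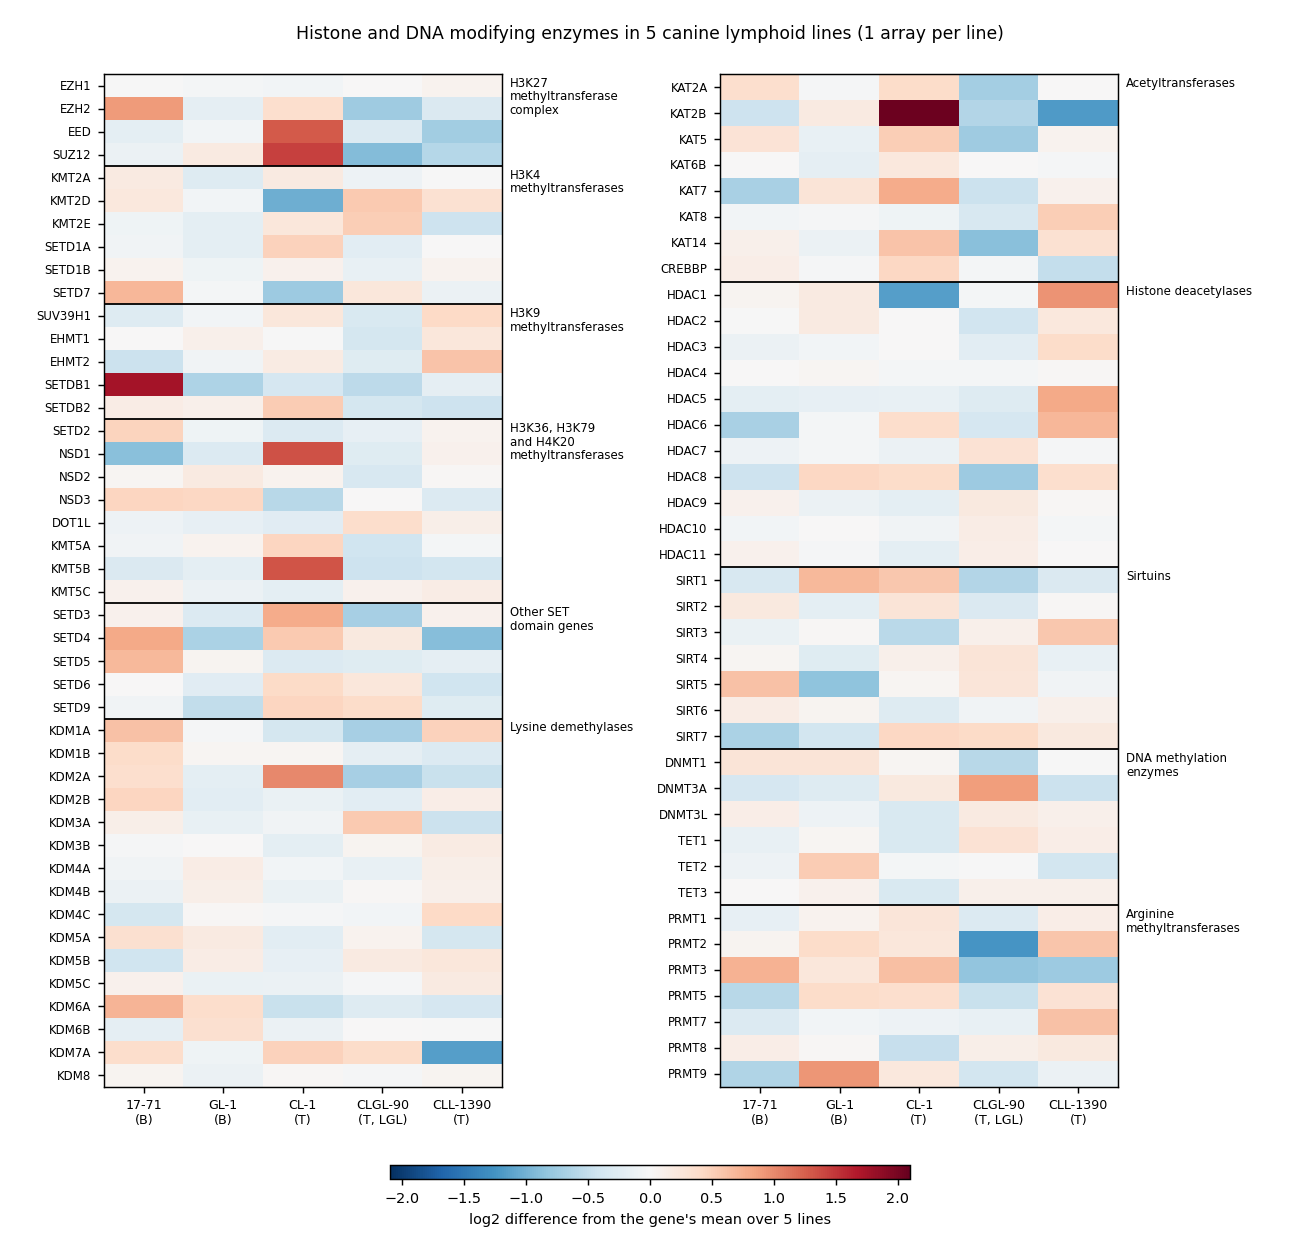
Heat map of the 83 enzyme genes (rows, grouped by role) in the 5 lines (columns, B-labelled first). Colour gives the log2 difference from the gene's own mean over the lines, red above and blue below. Most rows are pale, and strong colours include SETDB1 in 17-71, KAT2B, EED, SUZ12, NSD1 and KMT5B in CL-1, and KDM7A in CLL-1390.

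The genes of Polycomb repressive complex 2 did not share a pattern. EZH2, its main catalytic subunit in dividing cells, read 11.87 in 17-71 and 10.79 in GL-1, against 11.33 in CL-1, 10.24 in CLGL-90 and 10.67 in CLL-1390. It was highest in 17-71 and lowest in CLGL-90, and the B-labelled and T-labelled lines overlapped. EZH1, the alternative catalytic subunit that is kept in resting cells, was nearly flat, with values of 8.25 to 8.38. EED, which binds the finished mark and stimulates the enzyme, stood at 12.49 in CL-1, against 10.99 in 17-71, 11.15 in GL-1, 10.91 in CLGL-90 and 10.48 in CLL-1390. SUZ12, which holds the complex together, stood at 11.32 in CL-1, against 9.75 in 17-71, 10.06 in GL-1, 8.97 in CLGL-90 and 9.27 in CLL-1390. Both partners were therefore set apart in CL-1, by 1.34 for EED and 1.26 for SUZ12 above the next line, while EZH2 in CL-1 lay between its values in the B-labelled lines. EZH2, EED and SUZ12 had 1 probe set each, so no second probe set bears on these values.

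**Figure D2:**
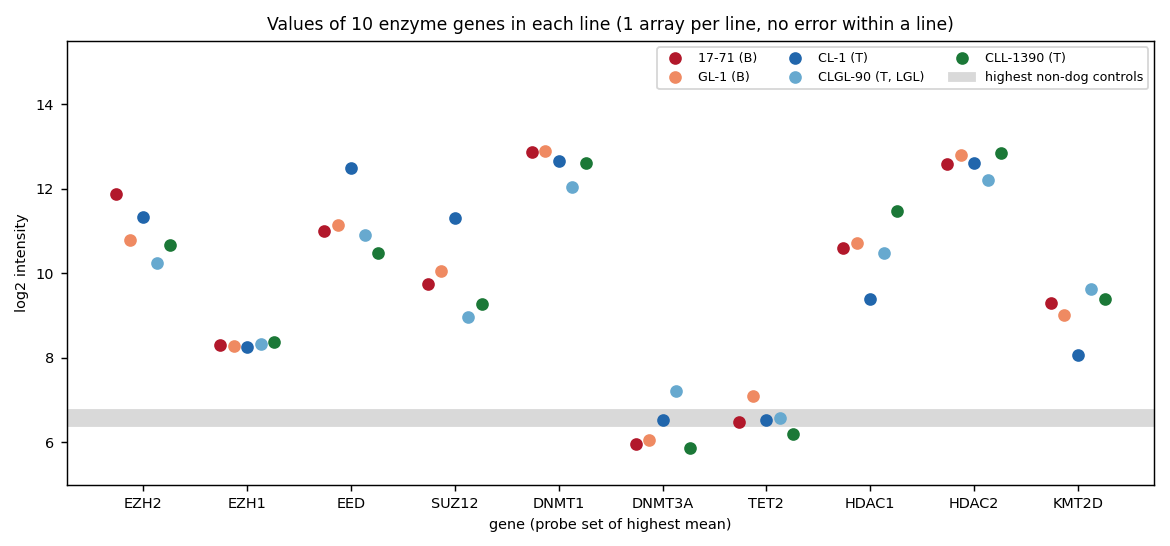
Log2 intensity (vertical axis) of 10 enzyme genes in each line, 1 point per array, B-labelled lines at the left of each gene. The grey band spans the 5 arrays' highest non-dog controls. EED and SUZ12 have their highest point in CL-1, HDAC1 and KMT2D their lowest there, and DNMT3A and TET2 lie in or near the band.

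Among the H3 lysine 4 methyltransferases, KMT2D, an enhancer enzyme with 1 probe set, was lowest in CL-1, where 36.9% of all tested genes were lowest. It read 9.30 in 17-71 and 9.01 in GL-1, against 8.05 in CL-1, 9.62 in CLGL-90 and 9.39 in CLL-1390. CL-1 lay 0.96 below the next line, just short of the gap of 1 used here for a gene set apart. SETD7 was also lowest in CL-1, at 7.52, with 8.16 to 8.99 in the other lines. KMT2A, the gene rearranged in many human acute leukemias, varied by 0.46 only, with values of 8.06 to 8.52. KMT2E was highest in CLGL-90, at 11.41, and 10.46 to 11.13 elsewhere. None of the 5 tested genes of this group separated the B-labelled from the T-labelled lines.

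The H3 lysine 9 methyltransferases make the mark of heterochromatin, and SETDB1, which silences retroelements, had the largest gap between 1 line and the next among the 81 tested enzymes. It read 11.70 in 17-71 and 9.29 in GL-1, against 9.59 in CL-1, 9.39 in CLGL-90 and 9.76 in CLL-1390. The 17-71 value lay 1.94 above the next line, and the other 4 lines fell between 9.29 and 9.76. Its other probe sets gave the same picture. They read 10.32 and 9.88 in 17-71, against 7.54 to 7.92 and 7.56 to 7.67 in the other lines. SUV39H1 and EHMT2 read 9.05 and 9.11 in CLL-1390, against 8.29 to 8.86 and 8.06 to 8.69 in the other lines. Their dimmer probe sets did not all share this order: 1 of SUV39H1 was highest in CL-1, at 8.17 against 7.57 in CLL-1390, and neither of EHMT2 was highest in CLL-1390. Over all the enzymes with more than 1 probe set, 45 of the 93 other probe sets (48.4%) were highest in the same line as the one used, so a highest line named from a single probe set is that probe set's.

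Because several genes high in 17-71 were seen to lie near each other, the tested genes that neighbour SETDB1 in the order of the dog assembly UU_Cfam_GSD_1.0 were listed. This was done after the values were seen and is a description. Of the 5 nearest on each side, 7 of 10 were highest in 17-71 and 6 stood at least 1 above every other line there, a gap that 2.01% of all tested genes showed in 17-71. They include CTSS and CTSK, which encode lysosomal proteases, at 13.56 and 9.79 in 17-71, against 8.94 to 11.97 and 6.73 to 8.51 in the other lines. MCL1, a survival factor of lymphocytes, read 13.24 in 17-71, against 10.84 to 12.21 in the other lines. ENSA, CERS2 and PRUNE1 showed the same gap, while GOLPH3L and MINDY1, in the midst of these genes, were lower in 17-71 than in the median of the other lines.

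The run went beyond these neighbours. Of the genes 11 to 20 positions away on the CERS2 side, 8 of 10 were highest in 17-71 and 6 had the gap, with a median of 1.48 above the other lines. Of those 21 to 40 positions away on that side, 13 of 20 were highest there. On the CTSK side, 1 of the 10 genes 11 to 20 positions away was highest in 17-71 and 0 had the gap, while of those 21 to 40 positions away 11 of 20 were highest there and 2 had the gap, with a median of 0.28. On the CERS2 side the tested genes of the chromosome ended 42 positions away, so the run had no distant genes on that side to compare with. Of the 298 tested genes more than 60 positions away, all on the CTSK side, 35 were highest in 17-71 and 1 had the gap. Their median was -0.04. For the other enzymes set apart in a line, the nearest 10 genes (5 for PRMT2) held 1 with such a gap in the same line and direction for SUZ12, 1 for KAT2B and 0 for EED, NSD1, KMT5B, HDAC1, PRMT2 and KDM7A. Around SUZ12, 5 of 10 were highest in CL-1, with a median of 0.62 above the other lines, against -0.08 over all genes. Around KAT2B it was 4 of 10, with a median of 0.21, and around KMT5B 3 of 10, with a median of 0.40. Around HDAC1, 3 of 10 were lowest in CL-1, with a median of -0.40. The medians around EED and NSD1 in CL-1 were 0.11 and -0.05. Those around PRMT2 in CLGL-90 and KDM7A in CLL-1390 were -0.12 and 0.08, against 0.06 and 0.05 over all genes.

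**Figure D3:**
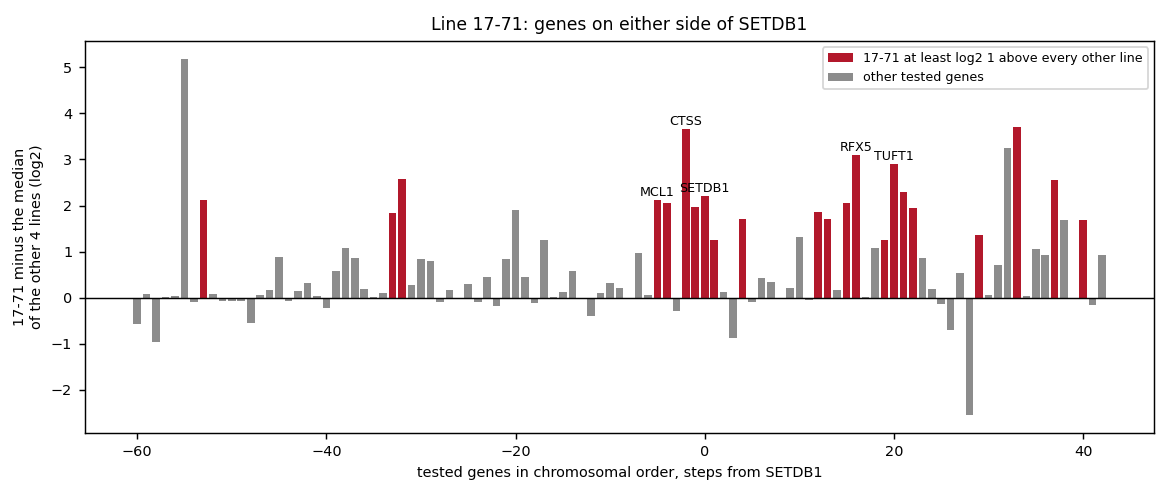
Tested genes in chromosomal order (horizontal axis, steps from SETDB1, in assembly UU_Cfam_GSD_1.0) with the value of 17-71 minus the median of the other 4 lines (vertical axis, log2). Red bars are genes at least 1 above every other line in 17-71. They are frequent from MCL1 onward to the right of SETDB1 and interrupted by genes near 0. The region was picked after the values were seen.

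The enzymes of H3 lysine 36, H3 lysine 79 and H4 lysine 20 held 3 of the genes that separated the labels or stood apart in 1 line. NSD1, which dimethylates H3 lysine 36, read 7.95 in 17-71 and 8.54 in GL-1, against 10.17 in CL-1, 8.58 in CLGL-90 and 8.91 in CLL-1390. The T-labelled lines were all above the B-labelled lines, though CLGL-90 lay close to GL-1, and CL-1 stood 1.26 above the rest. A second NSD1 probe set was also highest in CL-1 (7.75, against 6.80 to 7.0 elsewhere), but there CLGL-90 lay below both B-labelled lines. NSD3, its relative, ran the other way, at 9.89 in 17-71 and 9.87 in GL-1, against 8.86 in CL-1, 9.45 in CLGL-90 and 9.15 in CLL-1390. None of its other 3 probe sets separated the groups, and the nearest to it read 8.69 and 8.44 in the B-labelled lines, against 8.11, 7.82 and 8.49 in the T-labelled lines. KMT5B, an H4 lysine 20 methyltransferase, stood at 8.97 in CL-1 and 7.20 to 7.44 in the other lines, and its other probe set was highest in CL-1 as well (8.17, against 6.84 to 7.19).

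NSD2, SETD2 and DOT1L varied less. NSD2, altered in human myeloma and childhood leukemia, ranged over 0.53, with values of 9.21 to 9.73. Its 7 probe sets disagreed, and 1 of them read 9.30 in 17-71 and 7.98 in GL-1, against 9.04 in CL-1, 7.99 in CLGL-90 and 6.42 in CLL-1390. The low CLL-1390 value was therefore seen only with some of the NSD2 probe sets. SETD2, which trimethylates H3 lysine 36, was highest in 17-71 at 10.01, with 9.26 to 9.61 elsewhere, and DOT1L, the H3 lysine 79 enzyme, was highest in CLGL-90 at 9.55, with 8.95 to 9.31 elsewhere.

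Among the remaining SET domain genes, SETD3, an actin histidine methyltransferase, was highest in CL-1 at 11.56 and lowest in CLGL-90 at 10.09. SETD5 read 7.52 in 17-71 and 6.90 in GL-1, against 6.55 in CL-1, 6.58 in CLGL-90 and 6.65 in CLL-1390. Both B-labelled lines were higher, but the T-labelled values lay at or near the highest non-dog controls. SETD4 had the widest range of these genes, 1.68, and was highest in 17-71 at 9.87, lowest in CLL-1390 at 8.19.

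The lysine demethylases were among the least variable, with a median range of 0.68 over 16 genes, and KDM3B, KDM4A, KDM4B and KDM5C varied by less than 0.40. KDM6A, the X-linked H3 lysine 27 demethylase, separated the labels most clearly. It read 8.36 in 17-71 and 8.01 in GL-1, against 7.18 in CL-1, 7.38 in CLGL-90 and 7.29 in CLL-1390. A second probe set gave the same separation, at 7.44 and 7.30 in the B-labelled lines, against 6.24, 6.37 and 6.23 in the T-labelled lines. KDM6B, which removes the same mark, was highest in GL-1 at 7.26 and lowest in 17-71 at 6.73. The opponent of both, EZH2, was highest in 17-71, as KDM6A was. KDM6B had 1 probe set, and its 17-71 value lay close to CL-1 at 6.80 and to the 17-71 array's highest control, 6.60. Its lowest line is therefore not settled.

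Other demethylases differed in single lines. KDM1A, the flavin-dependent H3 lysine 4 demethylase, read 11.59 in 17-71 and 10.95 in GL-1, against 10.59 in CL-1, 10.27 in CLGL-90 and 11.45 in CLL-1390. KDM2A, an H3 lysine 36 demethylase, was highest in CL-1 at 8.69 and lowest in CLGL-90 at 6.98. KDM7A stood at 5.87 in CLL-1390, against 7.40 in 17-71, 6.94 in GL-1, 7.52 in CL-1 and 7.42 in CLGL-90. The CLL-1390 value of KDM7A was 1.07 below the next line and under that array's highest control, so the size of its gap is not measured.

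The acetyltransferases were highest in CL-1 for 7 of the 8 genes, KAT8 being the exception, highest in CLL-1390 at 10.38. For all tested genes CL-1 was the highest line in 23.5%. KAT2B, a coactivator of the SAGA and ATAC complexes, had the widest measured range of all the enzymes, 3.25, though its CLL-1390 value lay under that array's highest control, so the size of the range is not exact. It stood at 9.87 in CL-1, against 7.37 in 17-71, 8.0 in GL-1, 7.19 in CLGL-90 and 6.62 in CLL-1390. Its close relative KAT2A varied less and was lowest in CLGL-90 at 9.34, with 10.02 to 10.44 in the other lines. CREBBP, the broad transcriptional coactivator, read 9.22 in 17-71 and 9.05 in GL-1, against 9.52 in CL-1, 9.03 in CLGL-90 and 8.59 in CLL-1390. The lead of CL-1 was small for some of these genes, as for KAT2A, which read 10.44 in CL-1 and 10.40 in 17-71. KAT2A, KAT5 and KAT14 were lowest in CLGL-90. KAT2B had a single probe set.

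Of the 10 histone deacetylases tested, none was highest in CL-1 and 5 were lowest there, where 36.9% of all tested genes were lowest. CLL-1390 was the highest line for 5 of them and for 21.2% of all tested genes. HDAC4, HDAC7 and HDAC10, among the 5 lowest in CL-1, hardly differed from the next line, and HDAC4 and HDAC11 lay under the highest controls, so HDAC1 alone was clearly low in CL-1. HDAC1, a catalytic subunit of the Sin3, NuRD and CoREST complexes, stood at 9.38 in CL-1, against 10.60 in 17-71, 10.73 in GL-1, 10.49 in CLGL-90 and 11.47 in CLL-1390. CL-1 lay 1.11 below the next line and CLL-1390 0.74 above the next. With each array centred on its median, the CL-1 gap was under 1. Its other probe set had the same order of these lines, with 8.75 in CL-1 and 11.33 in CLL-1390, against 9.64 to 10.32 in the rest. HDAC2, which shares these complexes, was nearly level, with 12.59 in 17-71 and 12.79 in GL-1, against 12.61 in CL-1, 12.21 in CLGL-90 and 12.83 in CLL-1390. HDAC5, a class IIa enzyme that shuttles between nucleus and cytoplasm, stood at 9.05 in CLL-1390 and 7.98 to 8.09 in the other lines. HDAC6, the tubulin deacetylase, was highest in CLL-1390 at 8.12 and lowest in 17-71 at 6.76. HDAC4, HDAC7, HDAC10 and HDAC11 varied by 0.42 or less.

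**Figure D4:**
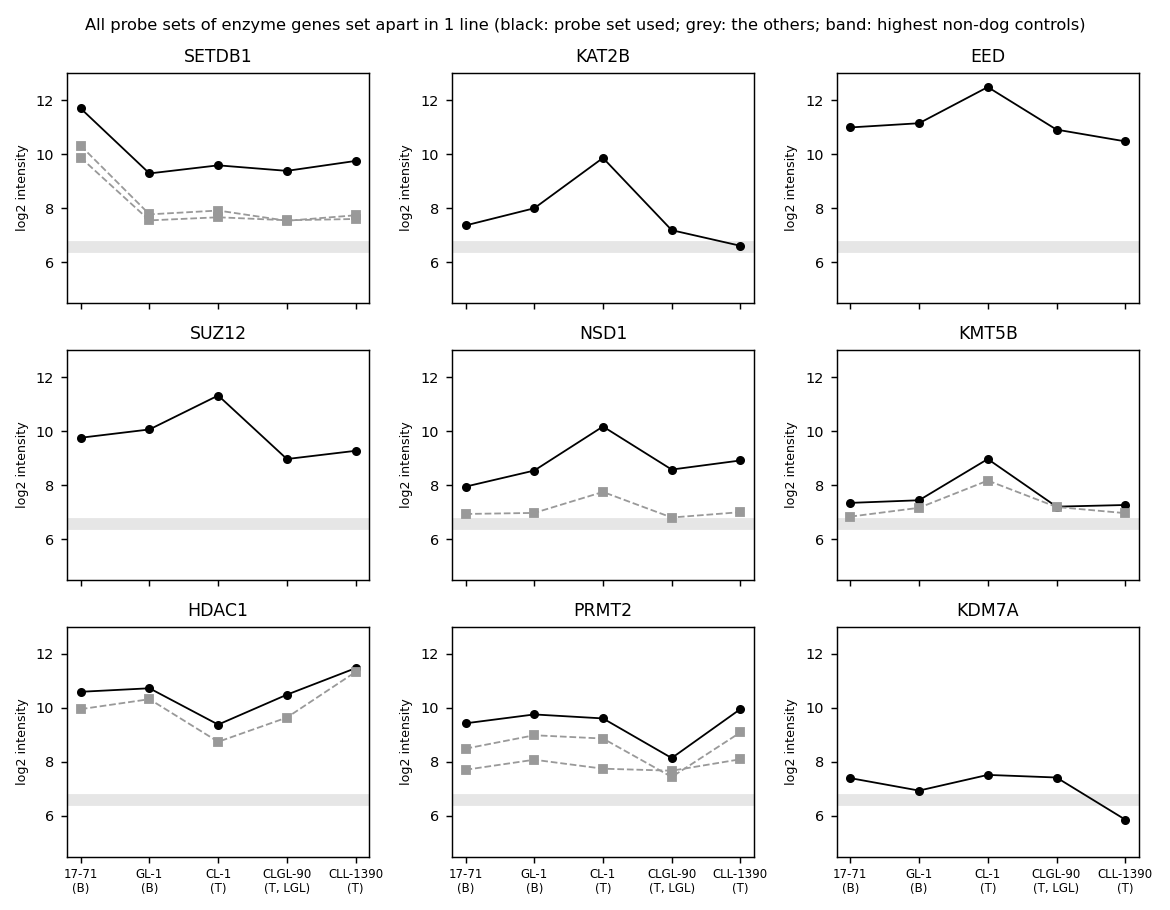
Log2 intensity (vertical axis) of every probe set of the 9 enzyme genes that stood at least 1 above or below all other lines in 1 line (horizontal axis). Black is the probe set of highest mean, grey the others, and the band the highest non-dog controls. The additional probe sets of SETDB1, KMT5B and HDAC1 follow the black line, and 1 of the 2 additional probe sets of PRMT2 does not.

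The sirtuins are NAD-dependent deacylases in the nucleus, cytoplasm and mitochondria. SIRT7, a nucleolar enzyme that acts on H3 lysine 18, read 8.09 in 17-71 and 8.37 in GL-1, against 9.20 in CL-1, 9.16 in CLGL-90 and 8.96 in CLL-1390. All T-labelled lines were above both B-labelled lines, and the gene had 1 probe set. SIRT1, the best studied nuclear sirtuin, fell into a higher pair, GL-1 at 8.55 and CL-1 at 8.43, and a lower set, 17-71 at 7.54, CLGL-90 at 7.27 and CLL-1390 at 7.57. That split crossed the labels. SIRT5, a mitochondrial desuccinylase, was highest in 17-71 at 12.59 and lowest in GL-1 at 11.13, the same 2 lines that share the B label.

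DNMT1, the maintenance methyltransferase, was bright in every line. It read 12.88 in 17-71 and 12.89 in GL-1, against 12.66 in CL-1, 12.03 in CLGL-90 and 12.60 in CLL-1390. Both B-labelled lines were above all T-labelled lines, with CL-1 the nearest and CLGL-90 the lowest of those. A second probe set was also lowest in CLGL-90, at 9.12, but there 17-71 at 10.07 lay below CL-1 at 10.12. DNMT3A read 5.97 in 17-71 and 6.05 in GL-1, against 6.53 in CL-1, 7.20 in CLGL-90 and 5.87 in CLL-1390, and exceeded its array's highest control in CL-1 and CLGL-90 only. TET2, a frequent target of mutation in human T-cell lymphoma, was 7.10 in GL-1 and 6.19 to 6.56 in the other lines with its main probe set, whereas its 3 other probe sets were highest in CL-1, at 7.81, 6.67 and 6.52. TET1 and TET3 lay at the level of the highest controls, with 5.90 to 6.53 and 6.31 to 6.75. At this signal no order of the lines can be read for TET1 and TET3, nor for DNMT3A below its CLGL-90 value.

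Arginine methyltransferases modify histones and RNA-binding proteins. PRMT1, the main asymmetric enzyme, was bright and level, with 13.09 to 13.63. PRMT5, the main symmetric enzyme, read 11.07 in 17-71 and 12.03 in GL-1, against 11.99 in CL-1, 11.19 in CLGL-90 and 11.96 in CLL-1390. Its low pair, 17-71 and CLGL-90, crossed the labels. PRMT2 stood at 8.14 in CLGL-90, against 9.43 in 17-71, 9.76 in GL-1, 9.61 in CL-1 and 9.96 in CLL-1390, a gap of 1.28 below the next line. A second probe set showed the gap (7.44, against 8.49 to 9.09) and the last did not (7.68, against 7.71 to 8.10). PRMT3, a ribosomal protein methyltransferase, was higher in 17-71, GL-1 and CL-1, at 10.90, 10.39 and 10.78, than in CLGL-90 and CLL-1390, at 9.32 and 9.40. All 3 of its probe sets separated these lines in that way. PRMT9 was highest in GL-1 at 10.33 and lowest in 17-71 at 8.77.

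The comparison of lineage labels asked whether these enzymes differ between B-labelled and T-labelled lines. With limma and Benjamini-Hochberg adjustment over all 14162 tested genes at 0.05, 0 of the 81 enzymes were called in either direction. The background of calls was 0.00706% higher (1 gene, the myeloid gene LYZ) and 0% lower in B-labelled lines. By an unadjusted p under 0.05 in the same fit, 2 enzymes were higher in B-labelled lines (2.47%, background 1.89%) and 1 was lower (1.23%, background 1.63%), together 3 (3.70%, background 3.52%). Groups did not overlap for 6 enzymes higher in B-labelled lines (7.41%, background 6.12%) and for 2 higher in T-labelled lines (2.47%, background 9.26%). These shares were near the background in the first direction and under it in the second. With single lines left out, 7 to 16 enzymes were higher in B-labelled lines without overlap. Their share was lower than that of all genes without CLGL-90 (8.64%, all genes 12.7%) and higher without any other line. It was 19.8% without 17-71 (all genes 15.4%), 19.8% without GL-1 (all genes 18.3%), 19.8% without CL-1 (all genes 13.5%) and 16% without CLL-1390 (all genes 11.3%). In T-labelled lines 8 to 12 were higher (9.88 to 14.8%, all genes 14.3 to 26%), each time a lower share than that of all genes. Enzymes higher in B-labelled lines at an unadjusted p under 0.05 numbered 5 without CL-1 (6.17%, all genes 3.32%) and 1 without CLL-1390 (1.23%, all genes 2.07%). The median difference was 0.002 over the enzymes, with 41 above 0 and 40 below, and -0.03 over all tested genes.

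KDM6A averaged 8.18 ± 0.25 in B-labelled lines (SD, n = 2) and 7.28 ± 0.10 in T-labelled lines (SD, n = 3), a difference of 0.90 (SE 0.20, limma unadjusted p = 0.00667, adjusted p = 1.0). SIRT7 averaged 8.23 ± 0.19 in B-labelled lines and 9.10 ± 0.13 in T-labelled lines, a difference of -0.87 (SE 0.19, limma unadjusted p = 0.00658, adjusted p = 1.0). NSD3 averaged 9.88 ± 0.01 in B-labelled lines and 9.15 ± 0.30 in T-labelled lines, a difference of 0.73 (SE 0.23, limma unadjusted p = 0.0283, adjusted p = 1.0). These 3 differences exceeded the spread within the groups but did not pass the adjustment over all genes. The others without overlap were SETD5, KDM5A, KDM1B and DNMT1, higher in B-labelled lines by 0.61, 0.44, 0.36 and 0.45, and NSD1, with a difference of -0.98 (SE 0.55, limma unadjusted p = 0.139). Leaving out 1 line moved several differences: without 17-71 SETD5 differed by 0.30, KDM1B by 0.19 and EZH2 by 0.05, without CLGL-90 DNMT1 differed by 0.25, and without CL-1 NSD1 differed by -0.50. NSD3 differed by 0.39 with the mean of its probe sets. For KDM1B the margin between the lowest B-labelled and the highest T-labelled line was 7.42 in GL-1 against 7.41 in CL-1. EZH2 averaged 11.33 ± 0.76 in B-labelled lines and 10.75 ± 0.55 in T-labelled lines, a difference of 0.59 within the spread (SE 0.48, limma unadjusted p = 0.281).

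**Figure D5:**
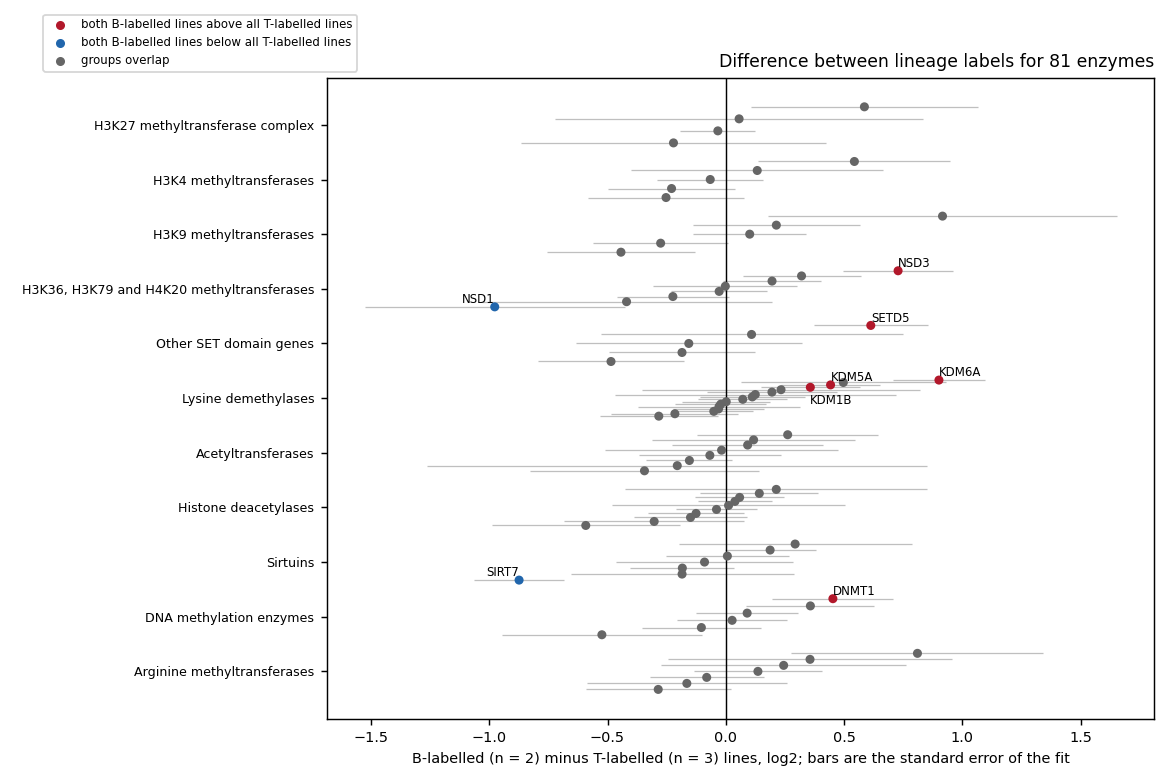
Mean of the B-labelled lines (n = 2) minus mean of the T-labelled lines (n = 3) for the 81 tested enzymes (horizontal axis, log2), grouped by role, with the standard error of the limma fit as bars. Red points are the 6 genes with both B-labelled lines above all T-labelled lines, blue points the 2 with both below, and grey points overlap. Points spread about evenly around 0 in most roles, and 0 of the 81 differences passed the adjusted threshold.

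Set line by line, 9 enzymes (11.1%) stood at least 1 above or below every other line in some line, against 13.3% of all tested genes. In CL-1, 5 enzymes stood above (6.17%, background 3.50%), namely KAT2B, KMT5B, EED, NSD1 and SUZ12, and 1 below (1.23%, background 0.967%), HDAC1. In 17-71 SETDB1 alone stood above (1.23%, background 2.01%). In CLGL-90 no enzyme stood above (0%, background 1.51%) and PRMT2 stood below (1.23%, background 0.784%), while in CLL-1390 none stood above (0%, background 1.48%) and KDM7A stood below (1.23%, background 1.21%). GL-1 had no enzyme set apart in this way, against 1.09% of all genes above and 0.558% below. The largest number of enzymes differing by at least 1 between 2 lines was 19 of 81 (23.5%) for CL-1 and CLGL-90, where 16.8% of all genes did. The smallest was 3 of 81 (3.70%) for GL-1 and CLL-1390, a B-labelled and a T-labelled line, where 11.1% of all genes did. The B-labelled lines 17-71 and GL-1 differed in 6 (7.41%, all genes 12.2%).

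CLGL-90 was the lowest line for 27 of the 81 enzymes (33.3%), against 15.2% of all tested genes, and CL-1 was lowest for 22 (27.2%), against 36.9%. The genes lowest in CLGL-90 came from all 11 role groups and include EZH2, SUZ12, KDM1A, KAT5, HDAC2, DNMT1 and PRMT2. Of 21 genes of DNA replication and mitosis measured on the array, 10 were lowest in CLGL-90 too. MCM4, a subunit of the replicative helicase, stood at 10.66 in CLGL-90, against 11.81 to 12.42 in the other lines, and RRM1, which makes deoxynucleotides, at 10.78, against 11.66 to 12.17. BIRC5, the mitotic survivin gene, was instead highest in CLGL-90, at 12.75, against 10.80 to 11.85. The part of growth rate in the enzyme values was not tested.

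Genes that work with these enzymes, listed by complex, had a median range of 1.13. Of 152 listed, 134 were tested and none was called by limma at an adjusted 0.05. In the same fit 4 (2.99%, all genes 3.52%) had an unadjusted p under 0.05, 1 higher and 3 lower in B-labelled lines. Their groups did not overlap for 4 genes higher in B-labelled lines (2.99%, all genes 6.12%) and for 15 lower (11.2%, all genes 9.26%), and the median difference was -0.10. CL-1 was the highest line for 56 of the 134 (41.8%, all genes 23.5%), and 13 stood at least 1 above all others there (9.70%, all genes 3.50%).

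Among the partners of Polycomb complexes, SCML2 read 5.67 in 17-71 and 5.78 in GL-1, against 8.87 in CL-1, 9.82 in CLGL-90 and 9.73 in CLL-1390, so both B-labelled values lay under the highest controls. YAF2, a subunit of a Polycomb complex 1 variant, stood at 11.67 in 17-71, against 8.50 to 9.94 in the other lines. JARID2, which guides EZH2 complexes to chromatin, was highest in CL-1 at 11.74 and lowest in CLGL-90 at 9.88, as SUZ12 was. PCGF5 read 7.39 in 17-71 and 7.31 in GL-1, against 9.55 in CL-1, 8.48 in CLGL-90 and 7.80 in CLL-1390.

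Among partners of the deacetylases, MTA3, a subunit of NuRD known in germinal centre B cells, read 9.44 in 17-71 and 7.64 in GL-1, against 12.13 in CL-1, 9.99 in CLGL-90 and 9.79 in CLL-1390. TBL1XR1, a subunit of the NCoR complex with HDAC3, stood at 11.66 in CL-1, against 9.36 in 17-71, 8.46 in GL-1, 7.29 in CLGL-90 and 8.17 in CLL-1390. CL-1, the line with the lowest HDAC1, had the highest value of both these partners, but not of all. Of the 21 tested partners of the deacetylases, 9 were highest in CL-1 (42.9%, all genes 23.5%). Another 5 were lowest there (23.8%, all genes 36.9%), among them CHD4 at 9.94 and MTA2 at 9.05. Of the partners of acetyltransferases, MSL2 and MSL3, which act with KAT8, stood at 8.83 and 12.70 in CL-1, against 5.57 to 6.06 and 9.70 to 10.89 in the other lines. The MSL2 values of those other lines lay under their arrays' highest controls, so the size of its gap is not measured. KAT8 itself was not highest in CL-1, at 9.78.

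Near SETDB1 in function, TASOR, a subunit of the HUSH complex that recruits it, read 11.43 in 17-71 and 11.09 in GL-1, against 10.19 in CL-1, 10.06 in CLGL-90 and 9.78 in CLL-1390. ATF7IP, which stabilises SETDB1 protein, ran the other way, at 8.08 in 17-71 and 8.41 in GL-1, against 9.43 in CL-1, 9.66 in CLGL-90 and 8.57 in CLL-1390. SUV39H2, the relative of SUV39H1, read 7.13 in 17-71 and 4.56 in GL-1, against 9.05 in CL-1, 8.53 in CLGL-90 and 7.08 in CLL-1390, the GL-1 value being at background. UHRF1, which brings DNMT1 to newly copied DNA, was 8.14 in 17-71 and 10.60 in GL-1, against 9.30 in CL-1, 8.52 in CLGL-90 and 9.18 in CLL-1390. The B-labelled lines were thus the lowest and the highest for UHRF1 while their DNMT1 values were close, at 12.88 and 12.89.

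Among the genes of arginine methylation, CARM1, itself a methyltransferase that the family name PRMT does not cover, stood at 9.36 in CL-1, against 6.38 to 6.98 in the other lines. The CARM1 values of 17-71 and CLL-1390 lay under those arrays' highest controls. MTAP, whose loss raises a metabolite that inhibits PRMT5, stood at 7.83 in CLGL-90, against 9.62 in 17-71, 11.11 in GL-1, 11.95 in CL-1 and 10.61 in CLL-1390. PRMT5 was at its lower level in 17-71 and CLGL-90, the lines in which MTAP was lowest. A link between these RNA values was not tested, and PRMT5 activity was not measured. SMYD3, a further lysine methyltransferase, was highest in CLL-1390 at 9.64 and lowest in GL-1 at 6.61, under that array's highest control. PRDM1, the regulator of terminal lymphocyte differentiation, and MGMT, a DNA alkyl repair enzyme, were highest in CL-1, at 10.48 and 10.18, against 6.97 to 8.88 and 6.54 to 7.64 in the other lines. The MGMT values of GL-1 and CLGL-90 lay under those arrays' highest controls.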

How the data were processed

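The deposited table gives 1 log2 intensity for each probe set in each line. The authors made it with GCRMA, per the submitters' processing notes. Neither its version nor a filter is stated in what was used here. Probe sets were named through the platform's annotation, and 82 of the 83 enzyme genes had the same symbol in the gene table of assembly UU_Cfam_GSD_1.0, which gave gene order only. No reference sequences were used here.

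A gene was its probe set of highest mean, tested where it reached log2 5 on at least 2 arrays. The difference of the label groups was fitted in R 4.3.3 by limma's lmFit and moderated by its eBayes (version 3.58.1, residual df of 3 and prior df of 1.74). Its two-sided p-values were adjusted after Benjamini and Hochberg over all 14162 tested genes. The fit was tested on simulated data. CLGL-90 was counted as T-labelled. Single lines were described by gaps of at least 1, without a test.

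The enzymes and the lists of partner, growth and lineage genes were chosen with earlier results of these data known. Named were EZH2, DNMT1 and a set of well known enzymes, those with a range of at least 2 reaching log2 8, those without overlap of the labels, those with a gap in a line and, per partner list, genes among the 8 of largest range, with UHRF1. Enzymes named besides these, the partner genes CHD4 and MTA2, and the growth and lineage genes named were picked to illustrate their group after their values were seen. The settings varied were the filter (none, or log2 7), the normalization (quantile again, or arrays centred on their medians), a floor (log2 4, or the highest non-dog control), CLGL-90 apart, other choices of probe set, an intensity trend with a robust prior, and leaving out each line.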

Additional observations from a re-analysis of the deposited data

How the results depend on the processing

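With 1 array per line, the number of arrays limits precision, and values under an array's highest control have no order. Under the alternatives tried, 0 of the 81 enzymes were called by limma, as in the reported fit, and no named difference between labels reversed: KDM6A ran from 0.72 to 1.09, SIRT7 from -1.01 to -0.74, DNMT1 from 0.25 to 0.62, EZH2 from 0.05 to 1.13, NSD3 from 0.39 to 0.88, SETD5 from 0.30 to 0.92, KDM5A from 0.32 to 0.57, KDM1B from 0.19 to 0.53 and NSD1 from -1.30 to -0.50, with adjusted p of at least 0.66. Of 291 recomputed values, 268 stayed within the limits set for them and 23 moved. Enzymes higher in B-labelled lines at an unadjusted p under 0.05 numbered 1 after quantile normalization again, and 1 to 5 when single lines were left out, 5 without CL-1 and 1 without CLL-1390. Enzymes higher in T-labelled lines without overlap numbered 1 after centring, a setting for which no share of all genes was computed. They numbered 10 with CLGL-90 apart (12.3%, all genes 15.8%). When single lines were left out they numbered 8 to 12 (9.88 to 14.8%, all genes 14.3 to 26%). Those higher in B-labelled lines then numbered 7 to 16 (8.64 to 19.8%, all genes 11.3 to 18.3%), since fewer lines overlap less easily. Gaps above in CLL-1390 numbered 1 after quantile normalization again and 1 with the probe set of highest variance. Gaps below numbered 0 in CL-1 after centring and 0 with the probe set of highest variance, 0 in CLGL-90 with the mean of all probe sets, and in CLL-1390 0 with values floored at the highest non-dog control and 2 with the probe set of highest variance. Enzymes with a range of at least 2 numbered 11 with the probe set of highest variance and 1 to 6 when single lines were left out, a check added after seeing the data: the count was 1 without CL-1, 4 without 17-71 and 4 without CLL-1390. The cause of the other shifts was not tested.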
